A study of Mus musculus with 6 samples.

Results

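The expression of 9 genes was followed in leukaemic mouse bone marrow, genes that write, erase or read DNA methylation and the metabolic gene Idh2. They are Dnmt1, Dnmt3a, Dnmt3b, Tet1, Tet2, Tet3, Uhrf1, Mbd2 and Idh2, 9 of 22662 gene symbols on the array, and all probe sets whose deposited symbol names one of them were taken, which gave 20 of 45037 probe sets that are not array controls. The 3 samples labelled Gfi1b KO carry floxed Gfi1b alleles (Gfi1bfl/fl), the MxCretg transgene, an interferon-inducible Cre recombinase, and the NUP98/HOXD13 transgene, which joins a nuclear pore gene to a Hox gene and gives mice a myelodysplasia that can progress to leukaemia. The 3 wildtype samples carry wild-type Gfi1b and the same MxCretg and NUP98/HOXD13 transgenes, so Cre and the leukaemia transgene are shared by both groups. Cells came from femur, tibia and humerus of leukaemic mice; the labels give no age, no Cre induction schedule and no promoter of the fusion, and do not say that the samples of a group are separate mice, so p-values measure only the spread between these samples, which may be technical. Each sample was hybridised to its own Affymetrix MG-430_2.0 array, and values are log2 expression after RMA, a normalization that brings the arrays to nearly the same distribution.

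Gfi1b itself, the floxed gene, read 10.88, 11.63 and 11.67 on the log2 scale in the samples labelled KO and 5.83, 6.37 and 4.38 in wildtype at its 1 probe set. That direction goes against a lost transcript, the deleted part is not given in the labels, and every direction below is therefore that of the samples labelled KO. Array medians lay between 3.73 and 3.86, and a group mean under 4.5 is called near the floor here, where differences are compressed. Among all probe sets, 1319 of 45037 passed a limma adjusted p of 0.05 (2.93%), and this count was 49 without KO replicate 2, 450 without wildtype replicate 1, 555 without KO replicate 1, 582 without wildtype replicate 3, 635 without KO replicate 3 and 2187 without wildtype replicate 2. The granulocyte markers averaged 8.0, 6.17 and 4.19 in the samples labelled KO and 11.88, 12.10 and 13.53 in wildtype, with 8 of 11 genes lower by the test. Of 11 erythroid markers 4 were higher, of 7 monocyte and macrophage markers 6 were lower and of 7 B cell markers 2 were lower, against a background of 3.91% called among 20724 genes at 1 probe set each. The mean of T and NK markers was 4.66 to 4.93 in the samples labelled KO and 5.23, 7.69 and 5.24 in wildtype.

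Methylation of cytosine in CpG dinucleotides is copied onto the new DNA strand after replication by DNMT1, which UHRF1 brings to half-methylated sites. DNMT3A and DNMT3B place methyl groups on unmethylated DNA, TET1, TET2 and TET3 oxidise them in a reaction that uses 2-oxoglutarate, and MBD2 binds methylated CpG and recruits the NuRD deacetylase complex. IDH2 is a mitochondrial enzyme that makes 2-oxoglutarate from isocitrate. In human myeloid leukaemia DNMT3A, TET2 and IDH2 are recurrently mutated, and in mice loss of Dnmt3a or Tet2 favours self-renewal of blood stem cells.

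The promoters of the de novo enzyme genes are shown because Dnmt3a read lower and Dnmt3b higher on average in the samples labelled KO, with a call for Dnmt3a only. Each run is the 250 bases before an annotated start site (RefSeq, GRCm38.p6, 5′ to 3′ on the gene's plus strand), in lower case with every CpG in capitals. Dnmt3a is shown at a start with dense CpG, chr12:3806730-3806979, and at its internal start, chr12:3891494-3891743, and Dnmt3b at chr2:153649199-153649448.
Dnmt3a, CpG-dense start: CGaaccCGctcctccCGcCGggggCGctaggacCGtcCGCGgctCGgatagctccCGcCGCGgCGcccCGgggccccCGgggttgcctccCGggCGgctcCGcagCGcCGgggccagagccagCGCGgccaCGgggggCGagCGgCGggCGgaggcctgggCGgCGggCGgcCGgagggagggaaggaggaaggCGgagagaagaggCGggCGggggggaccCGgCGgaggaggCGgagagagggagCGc
Dnmt3a, internal start: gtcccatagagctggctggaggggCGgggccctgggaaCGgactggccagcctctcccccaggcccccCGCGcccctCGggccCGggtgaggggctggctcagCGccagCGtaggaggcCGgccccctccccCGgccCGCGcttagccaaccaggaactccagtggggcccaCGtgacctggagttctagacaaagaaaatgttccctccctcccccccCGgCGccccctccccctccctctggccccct
Dnmt3b: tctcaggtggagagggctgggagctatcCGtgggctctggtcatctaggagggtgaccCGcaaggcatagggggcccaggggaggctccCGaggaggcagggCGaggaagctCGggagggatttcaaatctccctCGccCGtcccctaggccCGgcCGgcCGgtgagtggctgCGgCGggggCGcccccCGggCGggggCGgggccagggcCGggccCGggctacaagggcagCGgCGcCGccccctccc
The window of the CpG-dense Dnmt3a start held 38 CpG, that of the internal Dnmt3a start 15 and that of Dnmt3b 21, where the median over 32851 mouse promoter windows of that length was 6. Of 13 windows of 8 of the genes, 12 held more CpG than that median. The motif of GFI1 and GFI1B, searched as AAATC on both strands, was in 3 of the 13 windows, among them Dnmt3b, and in 32.7% of all promoter windows. The erythroid GATA motif, searched as AGATAA on both strands, was in 0 of the 13 and in 9.99% of all windows.

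The E2F motif of genes used in S phase, searched as TTTGGCGC or TTTCGCGC on both strands, was in 2 of the 13 windows and in 0.654% of all. Both belong to the maintenance pair, Dnmt1 and Uhrf1, and 30 bases around each match are shown with the motif in capitals. The windows at the other annotated starts of both genes did not hold it. The motif itself contains CpG, and these 2 windows held 26 (Dnmt1) and 30 (Uhrf1) CpG, where the median of all windows was 6. The share of all windows is therefore not a background of like CpG content. The Dnmt1 stretch is chr9:20952824-20952853 on the minus strand, with the motif on the opposite strand of the gene, starting 219 bases before the annotated start. The Uhrf1 stretch is chr17:56304117-56304146 on the plus strand, with the motif starting 185 bases before the start.
Dnmt1: ggtttccgcgcGCGCGAAAaagccggggtc
Uhrf1: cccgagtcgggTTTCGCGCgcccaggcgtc
These letters describe the windows and do not show that a factor binds there.

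Of the 20 probe sets, 2 were higher and 1 was lower in the samples labelled KO by limma with Benjamini-Hochberg adjustment over all probe sets. The background was 1.53% of all probe sets higher and 1.40% lower. The calls fell on 2 of the 9 genes, Mbd2 and Dnmt3a, and 17 probe sets did not pass. Without adjustment 9 of the 20 had p under 0.05, where 16.9% of all probe sets did. The groups did not overlap at 7 probe sets, 3 with the samples labelled KO above and 4 with them below, against 12.5% and 10.2% of all probe sets, 22.8% together. The median log2 fold change was -0.54 over the 20 probe sets and 0.02 over all probe sets. Probe sets of a gene share its transcripts and are not replicates.

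**Figure D1:**
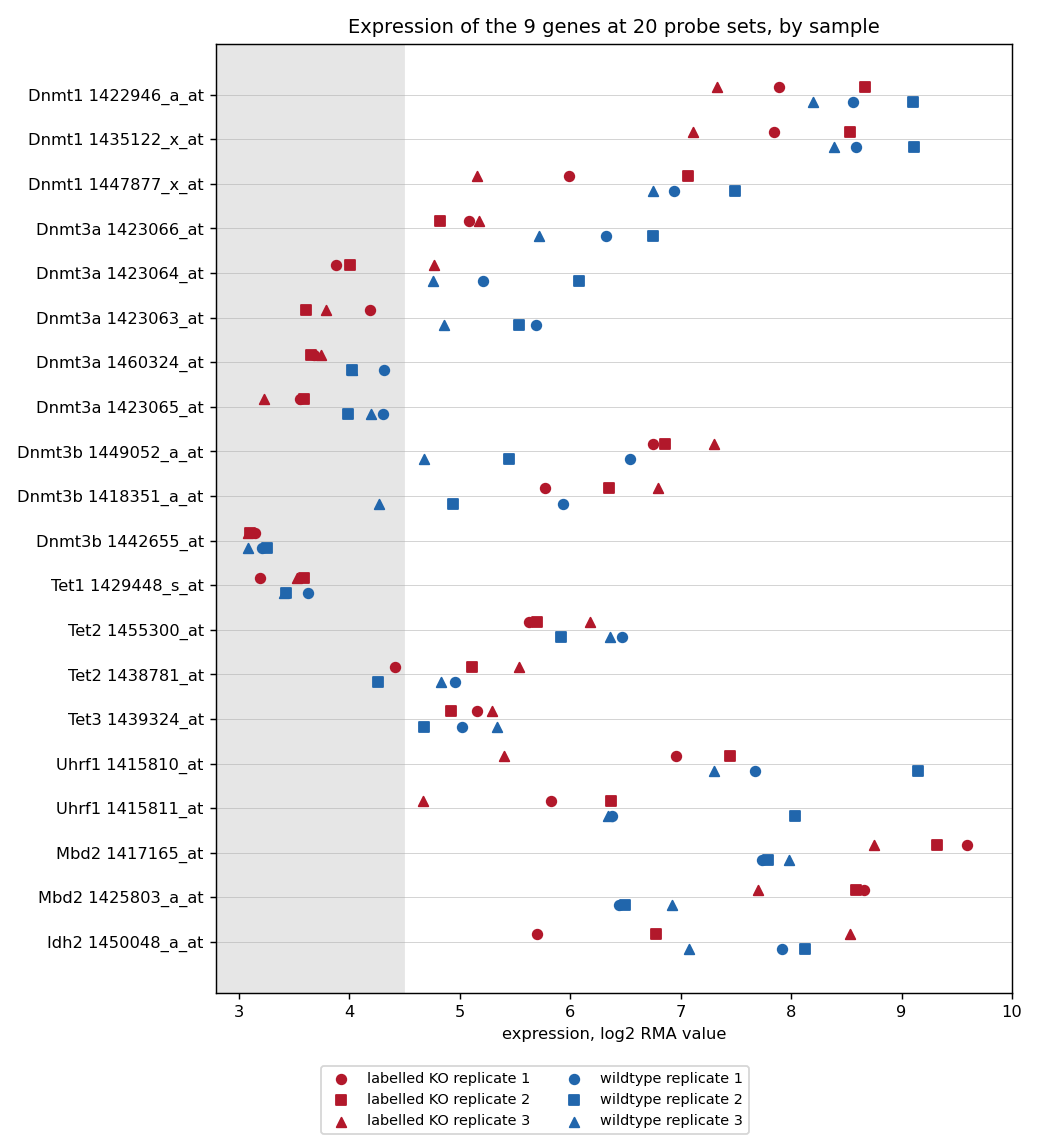
Log2 RMA expression (horizontal axis) of the 9 genes at 20 probe sets, with 1 point per sample, samples labelled KO in red above wildtype in blue, and the range under 4.5, near the floor, in grey. Both Mbd2 probe sets have all 3 labelled KO samples above all 3 wildtype samples, and 4 of the 5 Dnmt3a probe sets have them below. Of all probe sets, 12.5% have them above and 10.2% below in this way.

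Mbd2, the methyl-CpG reader, was higher in the samples labelled KO at both of its probe sets. At 1417165_at it read 9.59, 9.32 and 8.75 in the samples labelled KO and 7.74, 7.79 and 7.98 in wildtype. The groups did not overlap, and the wildtype samples lay closer together than those labelled KO. The means were 9.22 ± 0.43 and 7.84 ± 0.13 (SD, n = 3 each), a log2 fold change of 1.38, standard error 0.22 (2.6-fold, limma adjusted p = 0.0333). At 1425803_a_at it read 8.66, 8.59 and 7.70 in the samples labelled KO and 6.44, 6.50 and 6.92 in wildtype, again without overlap. This probe set differed by 1.70 with a standard error of 0.28 (3.24-fold, limma adjusted p = 0.0355). At both probe sets KO replicate 3 was the lowest of its group and wildtype replicate 3 the highest of its own. Without KO replicate 3 the adjusted p was 0.0195 at 1417165_at and 0.0193 at 1425803_a_at, and the calls were lost when any other sample was left out. Those adjusted p at 1417165_at were 0.0743 without KO replicate 1, 0.138 without KO replicate 2, 0.092 without wildtype replicate 1, 0.0504 without wildtype replicate 2 and 0.0754 without wildtype replicate 3. At 1425803_a_at they were 0.0988, 0.143, 0.0963, 0.0552 and 0.0633 for the same samples. The log2 fold change lay between 1.19 and 1.62 at the first and between 1.53 and 2.0 at the second over these fits. The part of the granulocyte, monocyte and erythroid markers, which also differed between the groups, was not tested. In bulk marrow, fewer cells of a type and less RNA per cell cannot be told apart.

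Part of the NuRD complex, through which MBD2 represses transcription, was also higher in the samples labelled KO. Of its 11 measured genes 2 rose, 0 fell and 9 did not pass, with a median log2 fold change of 0.74 where the median over all genes was 0.01 and 1.92% of genes were called higher. Mta2, a subunit of the deacetylase module, read 7.46, 8.13 and 7.94 in the samples labelled KO and 6.74, 6.50 and 6.45 in wildtype, a rise of 1.28 ± 0.20 (SE, limma adjusted p = 0.029). Chd3, a remodelling ATPase of the complex, read 5.92, 6.42 and 6.86 in the samples labelled KO and 4.57, 5.05 and 5.04 in wildtype, a rise of 1.51 ± 0.26 (SE, limma adjusted p = 0.0386). Neither gene overlapped between the groups, and of the 11 genes 5 lay above and 1 below without overlap, where 25.2% of all genes did not overlap. The mean of the 11 genes was 8.04, 8.33 and 8.64 in the samples labelled KO and 7.72, 7.97 and 7.23 in wildtype. KO replicate 3 was thus the highest sample of the NuRD list mean and the lowest labelled KO sample of Mbd2. Mta3 adds to that mean, with 8.23, 8.02 and 10.87 in the samples labelled KO, and Mta2 was highest in KO replicate 2. Of the 6 fits that leave out 1 sample, 2 kept the call of Mta2 (adjusted p = 0.0258 leaving out KO replicate 1 and 0.0441 leaving out wildtype replicate 2) and 2 that of Chd3 (without the same samples, 0.0413 and 0.0457). The other adjusted p went up to 0.106 for Mta2 and 0.147 for Chd3, both without KO replicate 2, with 0.0788 and 0.0729 without KO replicate 3, 0.0643 and 0.097 without wildtype replicate 1 and 0.0831 and 0.087 without wildtype replicate 3.

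Dnmt3a, the de novo methyltransferase of blood stem cells, was lower in the samples labelled KO, and 1 of its 5 probe sets passed. At 1423063_at it read 4.19, 3.61 and 3.79 in the samples labelled KO and 5.69, 5.54 and 4.86 in wildtype. All samples labelled KO lay below all wildtype samples. The difference was -1.50 on the log2 scale, standard error 0.26 (limma adjusted p = 0.0383), 2.82-fold in size, and the mean of the samples labelled KO, 3.87 ± 0.30 (SD, n = 3), is near the floor, where RMA compresses differences. The brightest Dnmt3a probe set, 1423066_at, read 5.09, 4.82 and 5.18 in the samples labelled KO and 6.33, 6.75 and 5.72 in wildtype. It is above the floor in both groups, its groups did not overlap, and it differed by -1.23 with a standard error of 0.27 (limma adjusted p = 0.0673, which does not pass). At 1423064_at the log2 fold change was -1.13 (adjusted p = 0.2), with KO replicate 3 at 4.77 level with wildtype replicate 3 at 4.76. The last 2, 1423065_at and 1460324_at, were near the floor in both groups and differed by -0.71 and -0.43 (adjusted p = 0.0654 and 0.146). All 5 probe sets thus read lower on average. At 4 of the 5 the groups did not overlap, where 10.2% of all probe sets had the samples labelled KO below without overlap. These 4 include 1423065_at and 1460324_at, near the floor, and probe sets of 1 gene are not replicates.

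Leaving out wildtype replicate 3, the lowest wildtype sample of the 3 brighter Dnmt3a probe sets, gave adjusted p of 0.0282 at 1423063_at and 0.0341 at 1423066_at. The call at 1423063_at was lost without KO replicate 1 (adjusted p = 0.0677), KO replicate 2 (0.146), KO replicate 3 (0.099), wildtype replicate 1 (0.0943) or wildtype replicate 2 (0.061), with log2 fold changes between -1.75 and -1.33 over all 6 fits. Among probe sets with a mean of at least 4.5 the brightest one also passed (adjusted p = 0.0356), as did the mean of the 5 probe sets, which changed by -1.0 (adjusted p = 0.0319). That mean includes probe sets near the floor. The brightest probe set did not pass limma with the replicate number as a block (adjusted p = 0.132) or a repeated quantile normalization (0.0836). Nor did it with array weights (0.0681), an intensity trend (0.0658), 1 probe set a gene (0.0579) or any sample but wildtype replicate 3 left out.

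Dnmt3b, the other de novo enzyme, read higher on average in the samples labelled KO at its 2 brighter probe sets, without passing. At 1449052_a_at it read 6.75, 6.86 and 7.30 in the samples labelled KO and 6.54, 5.45 and 4.68 in wildtype. The groups just failed to overlap, with wildtype replicate 1 close to the samples labelled KO. The log2 fold change was 1.41 with a 95% interval of 0.34 to 2.49 before adjustment (limma adjusted p = 0.173). At 1418351_a_at it read 5.77, 6.35 and 6.80 in the samples labelled KO and 5.94, 4.94 and 4.27 in wildtype, so that wildtype replicate 1 lay above KO replicate 1, and the difference was 1.26 (adjusted p = 0.224). The remaining probe set, 1442655_at, was near the floor in all samples, between 3.09 and 3.26, and cannot show a difference. Without wildtype replicate 1 the 2 brighter probe sets differed by 1.91 and 1.70 (adjusted p = 0.0546 and 0.0965). That sample also stood apart from the other wildtype samples in the mean of the stem and progenitor markers. This mean was 6.51, 6.97 and 7.02 in the samples labelled KO and 6.85, 5.04 and 5.05 in wildtype. Its closeness to the samples labelled KO came from markers that differed in opposite directions. In wildtype replicate 1, Cd34 (8.22), Kit (7.21) and Flt3 (9.44) lay above every sample labelled KO. Mllt3 (4.39), Gata2 (6.74) and Hoxa9 (7.45) lay below every one, and Meis1 (4.49) lay among them. Of these 7 markers, 1 was higher by the test and 0 lower, and Meis1 alone had a mean near the floor over all samples; their part in the Dnmt3b values was not tested. The value of Dnmt3a at its brightest probe set minus that of Dnmt3b at its own was -1.66, -2.04 and -2.11 in the samples labelled KO and -0.21, 1.30 and 1.04 in wildtype. Levels of different probe sets cannot be compared, neither of these probe sets passed the test, and the difference is given as a description.

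**Figure D2:**
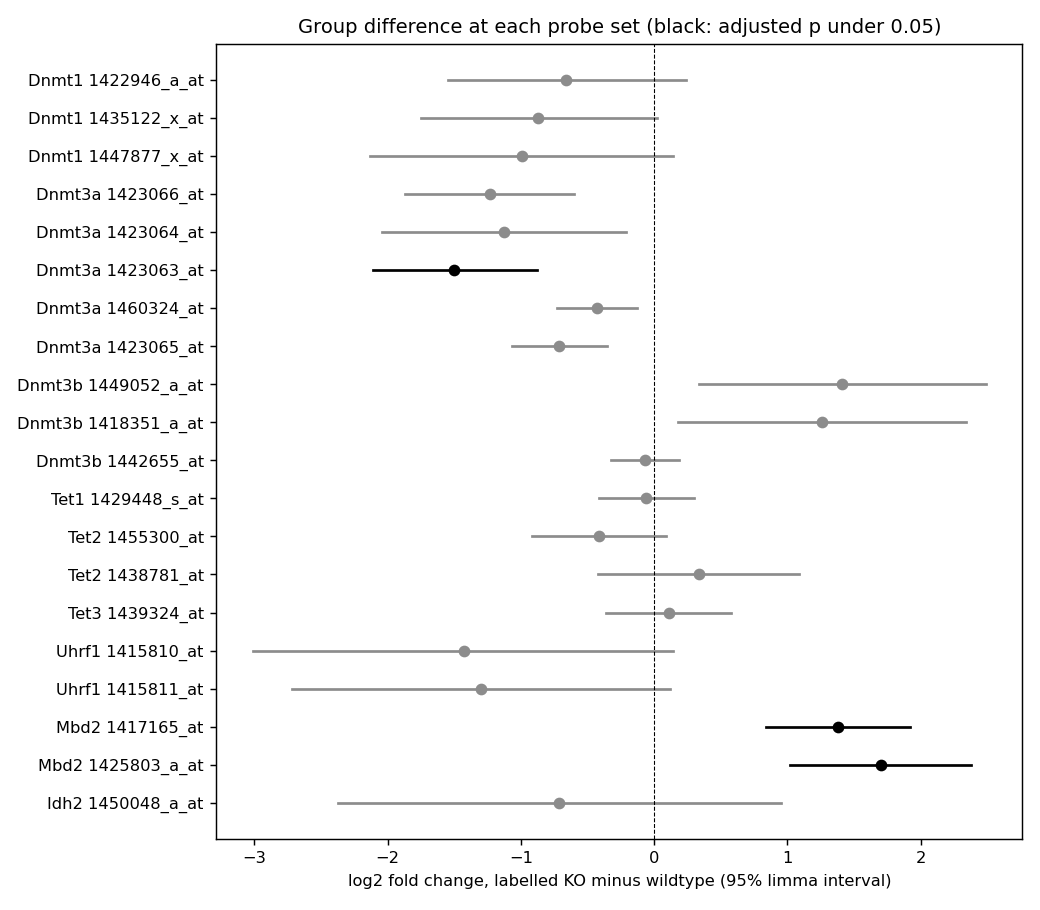
Log2 fold change, labelled KO minus wildtype (horizontal axis), with its 95% limma interval before adjustment at each of the 20 probe sets, n = 3 samples in each group. Black marks the 3 probe sets past an adjusted p of 0.05, 2 of Mbd2 to the right of 0 and 1 of Dnmt3a to the left, while the wide intervals of Uhrf1 and Idh2 cross 0.

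Uhrf1 and Dnmt1, the maintenance pair, read lower on average in the samples labelled KO, and 0 of their 5 probe sets passed limma. At all 5 the groups overlapped through KO replicate 2 alone, which lay above the lowest wildtype sample. Uhrf1 at 1415810_at read 6.96, 7.45 and 5.40 in the samples labelled KO and 7.67, 9.15 and 7.30 in wildtype. KO replicate 3 was the lowest sample and wildtype replicate 2 the highest by more than 1 log2 unit. The log2 fold change was -1.43 with a 95% interval of -3.01 to 0.14 (adjusted p = 0.338), and at 1415811_at it was -1.30 (adjusted p = 0.336). Dnmt1 at 1422946_a_at read 7.89, 8.67 and 7.33 in the samples labelled KO and 8.56, 9.10 and 8.20 in wildtype. Its 3 probe sets differed by -0.66, -0.87 and -0.99, with 95% intervals that all include 0 (adjusted p = 0.451, 0.308 and 0.361). None of these 5 probe sets reached an unadjusted p of 0.05, and 2 of the 3 for Dnmt1 are of the kind that can cross-hybridise (ending in x_at). Without KO replicate 3 the differences of the brightest probe sets were -0.83 for Uhrf1 and -0.34 for Dnmt1, and without wildtype replicate 2 they were -0.88 and -0.42.

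The samples that were extreme for the maintenance pair were also the extremes of the mean of the replication genes. The mean of 20 replication and S phase genes was 7.36, 7.71 and 6.26 in the samples labelled KO and 7.53, 7.81 and 7.29 in wildtype. KO replicate 3 was the lowest and wildtype replicate 2 the highest, as for Uhrf1 and Dnmt1, but KO replicate 2 was close to the highest. Single genes differed in their highest sample, which was wildtype replicate 3 for Cdc45 (6.06), wildtype replicate 1 for Gins2 (5.90) and KO replicate 2 for Mki67 (10.06). Of these 20 genes 0 passed limma, 4 had an unadjusted p under 0.05, a share near the 20.3% of all genes, and the median log2 fold change was -0.27. Cdc45, part of the replicative helicase, and Gins2, of the same helicase, differed by -0.97 and -0.67 (adjusted p = 0.0501 and 0.154). Wildtype replicate 2 is also the sample with high T cell genes, and the part of those genes in its Uhrf1 value was not tested.

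**Figure D3:**
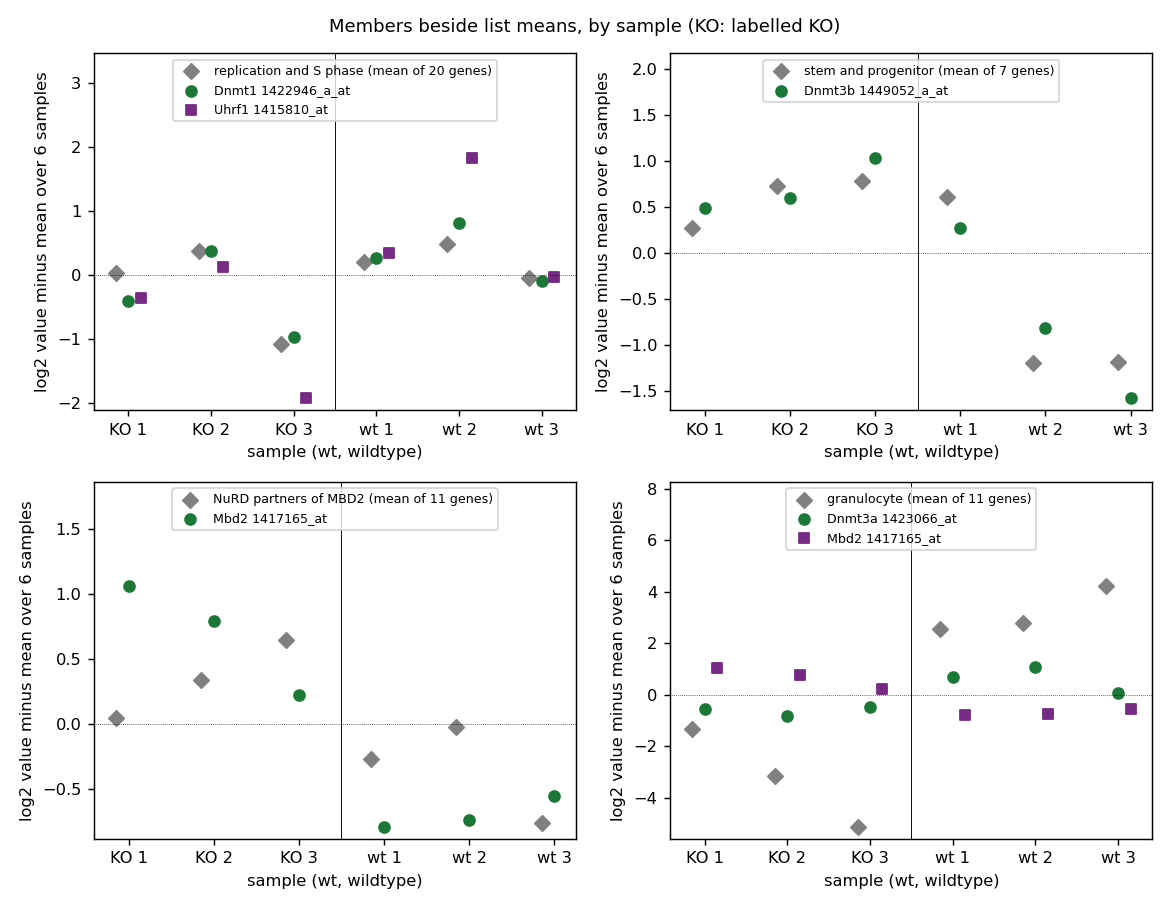
Log2 values minus their mean over the 6 samples (vertical axis) for single genes and for the mean of a gene list, by sample, with the samples labelled KO on the left and wildtype (wt) on the right. For Dnmt1, Uhrf1 and the mean of the replication list, KO replicate 3 is lowest and wildtype replicate 2 highest. In that list mean, KO replicate 2 lies close to wildtype replicate 2. Dnmt3b in wildtype replicate 1 lies near the samples labelled KO. The mean of the stem and progenitor list does so too, but its single markers lie above, among or below those samples.

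The TET genes did not pass at any of their 4 probe sets, with 0 calls by limma and 0 at an unadjusted p under 0.05. Tet2, the TET enzyme most often lost in human myeloid malignancy, read 5.63, 5.70 and 6.18 in the samples labelled KO and 6.47, 5.92 and 6.36 in wildtype at 1455300_at. The groups overlapped through KO replicate 3, and the log2 fold change was -0.41 with a 95% interval of -0.92 to 0.09 (adjusted p = 0.398). Its other probe set, 1438781_at, differed by 0.34 the other way, with an interval of -0.42 to 1.09 (adjusted p = 0.666). The 2 Tet2 probe sets therefore disagreed in sign, both within intervals that include 0. Tet3 was measured at 1439324_at, which also names B430006D22Rik, a synonym of Tet3 in RefSeq. It read 5.16, 4.92 and 5.29 in the samples labelled KO and 5.02, 4.68 and 5.34 in wildtype, a difference of 0.11 with an interval of -0.36 to 0.58 (adjusted p = 0.833). Tet1 at 1429448_s_at was between 3.19 and 3.63 in all samples, near the floor, and a difference in Tet1 was not detectable at this probe set.

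Idh2 varied more among the samples labelled KO than between the groups. It read 5.70, 6.78 and 8.53 in the samples labelled KO and 7.92, 8.13 and 7.08 in wildtype at its 1 probe set, so the samples labelled KO held both the lowest and the highest value. The difference was -0.71 with a 95% interval of -2.37 to 0.95 (limma adjusted p = 0.679), and it was -1.47 without KO replicate 3 and -0.06 without KO replicate 1. Idh1, the cytosolic enzyme of the same reaction, fell. It read 5.52, 4.52 and 5.41 in the samples labelled KO and 7.68, 6.74 and 8.44 in wildtype, a log2 fold change of -2.47 with a standard error of 0.46 (limma adjusted p = 0.047). Its other probe set differed by -2.17 (adjusted p = 0.066), and both Idh1 probe sets are of the kind that can match several transcripts (ending in s_at). Idh1 passed in 1 of 6 fits with a sample left out, without wildtype replicate 2 (adjusted p = 0.0151), and not without KO replicate 1 (0.101), KO replicate 2 (0.159), KO replicate 3 (0.0987), wildtype replicate 1 (0.117) or wildtype replicate 3 (0.0899). Of 14 genes of 2-oxoglutarate and related acids, Idh1 was the 1 that fell, 0 rose and 13 did not pass, with a median of 0.14, and 1.99% of all genes were called lower.

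Genes that supply and recycle the methyl donor S-adenosylmethionine held 2 further rises. Of 12 measured, 2 rose, 0 fell and 10 did not pass, with a median of 0.27, where 1.92% of all genes were called higher. Mat2b, the regulatory subunit of the enzyme that makes the donor, read 8.26, 8.47 and 8.31 in the samples labelled KO and 7.39, 6.83 and 6.96 in wildtype, a rise of 1.29 ± 0.17 (SE, limma adjusted p = 0.0203). Mtap, which salvages methionine from the by-product of polyamine synthesis, read 7.35, 8.06 and 7.85 in the samples labelled KO and 5.91, 6.24 and 4.96 in wildtype, a rise of 2.05 ± 0.35 (SE, limma adjusted p = 0.0385). In both genes the samples labelled KO lay above wildtype without overlap, as they did in 13.2% of all genes. The next brightest Mtap probe set differed by 1.92 (adjusted p = 0.0513), and its other 2 by 0.28 and 0.06 (adjusted p = 0.605 and 0.911), the last near the floor. Mat2a, the catalytic subunit, differed by -0.42 (adjusted p = 0.638). Mat2b passed without wildtype replicate 1 (0.0298) or 2 (0.0243), and had adjusted p of 0.0569, 0.0999, 0.0557 and 0.0607 without KO replicates 1, 2 and 3 and wildtype replicate 3. Mtap passed without wildtype replicate 2 (0.0223) or 3 (0.0481), and had 0.0731, 0.152, 0.102 and 0.0848 without KO replicates 1, 2 and 3 and wildtype replicate 1.

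Other methyl-CpG readers and demethylation genes gave 0 calls by limma. Of 13 readers and UHRF1 partners, 3 had an unadjusted p under 0.05, where 20.3% of all genes did, and the median was 0.14. Uhrf2, the paralog of Uhrf1, differed by 0.59 (adjusted p = 0.123). Of 12 measured genes of demethylation, base excision repair and TET partnership, 3 had an unadjusted p under 0.05, and the median was 0.05. Gadd45a, a stress gene linked to DNA demethylation, and Ung, which removes uracil from DNA, differed by 1.52 and -1.10 (adjusted p = 0.0842 and 0.124). Over the 6 lists, 4 of 82 genes rose, 1 fell and 77 did not pass, where 1.92% of all genes were called higher and 1.99% lower.

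**Figure D4:**
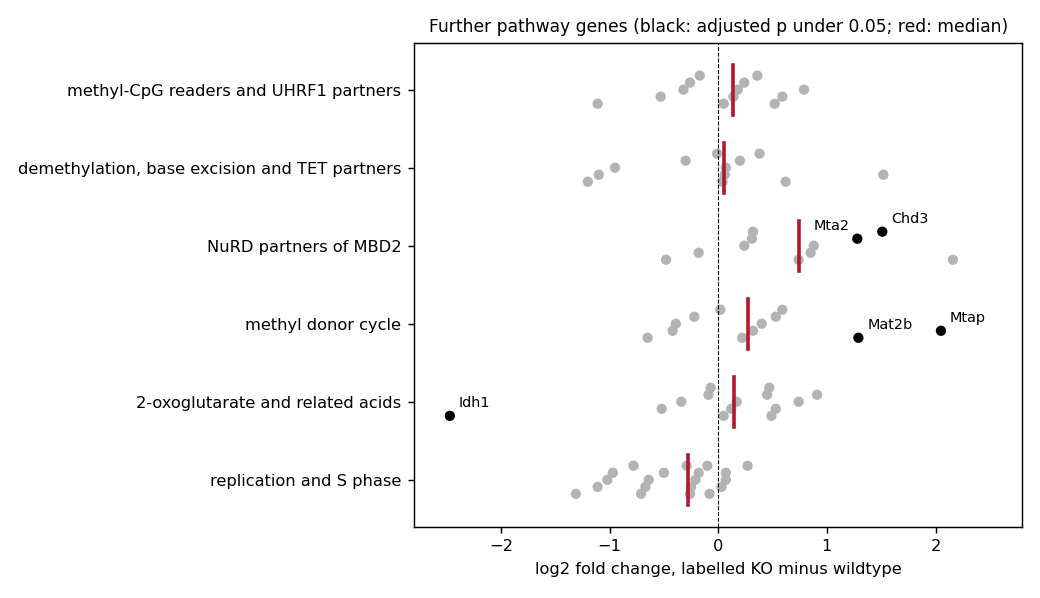
Log2 fold change, labelled KO minus wildtype (horizontal axis), of 82 pathway genes in 6 lists, 1 point per gene, with the list median in red. The 5 genes past an adjusted p of 0.05 are in black and named: Mta2, Chd3, Mat2b and Mtap to the right of 0 and Idh1 to the left.

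Genes with the pattern most like each member were listed among 1937 named genes with a mean of at least 6 and an SD of at least 0.5, by Pearson correlation over the 6 samples. With 6 samples in 2 groups such correlations are high by the search alone, and they are given as a description. Dnmt1 lay closest to Prim1 (0.976), a subunit of DNA primase, Mcm4 (0.975), a helicase subunit that is also in the replication list, and Wdhd1 (0.968), a replisome factor. Uhrf1 lay closest to Whsc1 (0.995), a histone methyltransferase gene, Zw10 (0.970), a kinetochore gene, and again Wdhd1 (0.966). Dnmt3b lay closest to Polr1c (0.999), a subunit of RNA polymerases I and III, Rpl17 (0.997), a ribosomal protein, and Gltscr2 (0.989), a nucleolar protein, and 208 of the 1937 genes had a correlation of at least 0.9 with it. Mbd2 lay closest to Rab38 (0.991), a GTPase of lysosome-related organelles, Ubxn2a (0.988) and Nupr1 (0.987), a stress-induced nuclear protein. All of these last 3 passed with rises of 4.08, 1.21 and 3.76 (limma adjusted p = 0.0459, 0.0216 and 0.0189). Genes picked for following a probe set with separate groups tend to differ the same way, so these adjusted p are no separate evidence. Dnmt3a lay closest to Hbb-y (0.976), an embryonic globin, Dgkz (0.963), a diacylglycerol kinase, and Ptms (0.951). Ptms changed by -1.88 (adjusted p = 0.0257), to which the same limit applies. For Tet2 they were Arhgap15 (0.993), Myo1g (0.986) and Rhob (0.985), for Tet3 Fam63a (0.874) and Srgn (0.868), and for Idh2 Ptprs (0.983), Zranb2 (0.975) and Cdk5rap3 (0.966). Tet1 is near the floor, and its closest genes, Casp2 (0.911), Snd1 (0.90) and Tgfbr2 (0.895), follow differences of a size that RMA compresses.

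**Figure D5:**
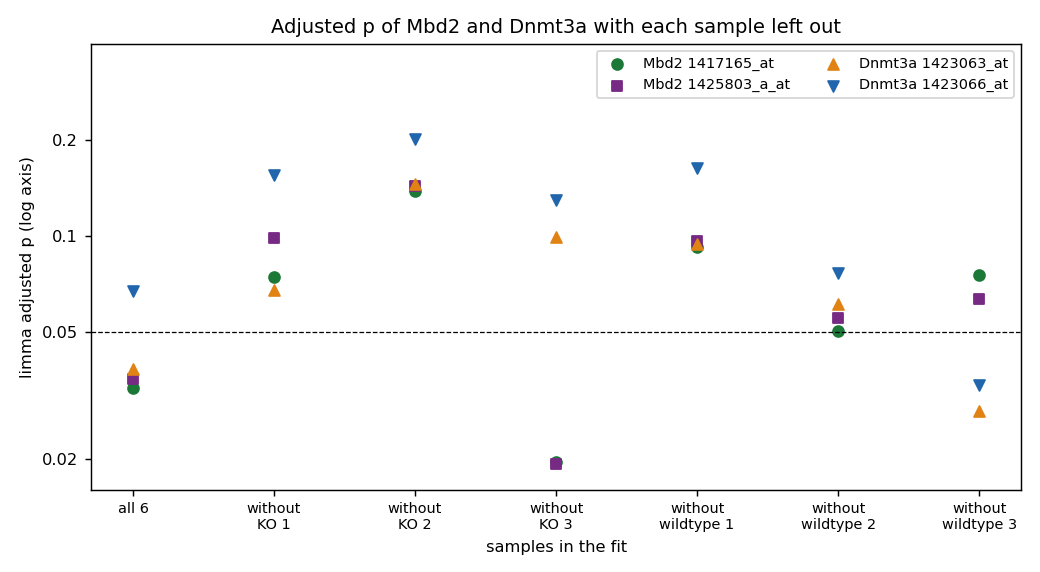
Limma adjusted p (vertical log axis) of 2 Mbd2 and 2 Dnmt3a probe sets with all 6 samples and with each sample left out in turn; the dashed line is the threshold of 0.05. The Mbd2 points stay below the line only with all samples and without KO replicate 3, and those of Dnmt3a at 1423063_at with all samples and without wildtype replicate 3.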

How the data were processed

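Per the labels, 200 ng of total RNA from each of 6 samples of leukaemic bone marrow went on an Affymetrix MG-430_2.0 array. The deposited log2 values were made by the authors with RMA, per the submitters' processing notes; the RMA version and genome build are not given in the sources used here. A second deposited table by the authors holds gene symbols, signed fold changes (a ratio with a sign) and p-values. Group means of both tables differed by 0, and limma on all 45101 probe sets gave unadjusted p-values within 4.95e-08 of the authors'.

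Log2 values of the 45037 probe sets that are not among the 64 controls were compared with limma 3.58.1 (lmFit and eBayes) in R 4.3.3, as a two-sided test of KO minus wildtype, with no filter; p-values were adjusted by Benjamini and Hochberg's method across these probe sets, with a threshold of 0.05. The number of arrays limits the precision. Every probe set naming a member is given. Pathway and marker genes were represented by the probe set with the highest mean among those naming 1 gene, and of each pathway list those past the threshold, otherwise the 2 with the smallest p-value, were named; any other gene was chosen after its value was seen. Some genes that these rules name are not reported here. Neil2 and Tdg had no probe set naming 1 gene. The members and lists were chosen with earlier results of these data known. Replicate numbers are shared between the groups, but deviations of same-numbered samples correlated at -0.143, -0.031 and -0.019, so the samples were not treated as pairs. Alternatives were each sample left out, the replicate number as a block, a repeated quantile normalization, array weights, an intensity trend, filters on dim probe sets, 1 value a gene and control probe sets kept. The values of the authors' second table and their deposited p-values were counted as alternatives too. The fit was tested on simulated data, 3 samples against 3 with 200 of 45037 probe sets changed. It recovered 34% of log2 changes of 1 and 96% of those of 2, so a change near 1 can fail to pass. The simulation used independent noise and fewer changed probe sets than the 1319 called in the data. The adjustment depends on that number, so these shares are not the recovery in the data. Promoter windows are RefSeq's (GRCm38.p6). Tables and figures were made in Python 3.11.15 with matplotlib 3.10.9.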

Additional observations from a re-analysis of the deposited data

How the results depend on the processing

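Leaving out 1 sample gave 36 to 726 probe sets higher and 13 to 1461 lower among all, 0 to 2 higher and 0 to 2 lower among the 20 member probe sets, and 0 to 5 higher and 0 to 1 lower among the pathway lists; at an unadjusted p under 0.05, 8 to 12 member probe sets passed. With the replicate number as a block, 377 of all probe sets, 0 member probe sets and 1 pathway gene were higher (13 member probe sets at an unadjusted p under 0.05), with Mbd2 at adjusted p = 0.0773 and 0.0892; the labels do not show that the numbers pair the samples. A repeated quantile normalization left 0 member probe sets higher (10 at an unadjusted p under 0.05), with Mbd2 at 0.0561 and 0.0546. A mean of at least 4.5 gave 1049 higher and 1023 lower among all and 2 Dnmt3a probe sets lower. Of these, 1423063_at averaged 4.61 over all samples, but its labelled KO mean of 3.87 is near the floor. It met this filter only through its wildtype mean of 5.36, so its call there is no separate evidence. A mean of at least 6, which drops every Dnmt3a probe set, gave 0 member probe sets lower (3 of 10 in either direction at an unadjusted p under 0.05). Array weights called 2 Dnmt3a probe sets lower. One probe set a gene gave 1 member higher and 0 lower (3 of 8 at an unadjusted p under 0.05) and 3 pathway genes lower, and the mean of a gene's probe sets gave 405 genes higher in all and 1 member higher. Signs turned for Tet1 (range -0.13 to 0.07 with a sample left out) without KO replicate 1 (0.07) or wildtype replicate 1 (0.02) and for Tet3 (range -0.05 to 0.27) without wildtype replicate 2 (-0.05). Over all alternatives, 276 of 302 member values kept their sign and side of the threshold, 19 lost the call, 4 gained one and 3 turned. The causes of these changes were not tested. Most of the 302 values belong to the 17 probe sets not called in the main fit, and all 19 lost calls fell on the called ones. The 302 also include the authors' p-values, their second table's values and the fit with controls kept, which repeat the same data and each kept all 20. The total is therefore no measure of how stable the calls are. Signal near the floor limits Tet1, 1 probe set of Dnmt3b and 4 of Dnmt3a.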
